A study of Saccharomyces cerevisiae with 6 samples.

Results

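The genes described here encode the proteasome of budding yeast: 14 subunits of its 20S core, 19 subunits of its 19S regulatory particle, the transcription activator RPN4 and the core maturation factor UMP1. They were chosen by symbol, and all 35 had a probe set among the 5449 genes measured in Saccharomyces cerevisiae. Each of the 35 was read by 1 probe set, and each lay above the background level, the lowest mean over arrays being 8.36 (log2) where the background level was 5.07. Their RNA was read on 6 arrays of the Affymetrix Yeast Genome 2.0 type, which report a log2 expression value per probe set. The evolved strains were 62A (1 array), 62B (2 arrays) and 62C (1 array), which had been adapted to galactose, and the reference was the wild type (2 arrays). All strains shared the CEN.PK113-7D background and grew on minimal glucose medium in fermenters at a controlled pH until mid exponential phase. The comparison asks how strains that adapted to galactose express these genes when glucose is the carbon source. The labels do not say whether paired arrays came from separate cultures or whether an evolved strain was a single clone, so p-values measure only the spread between these arrays, which may be technical. They also cannot separate RNA per cell from the makeup of a culture.

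The proteasome degrades proteins that carry chains of ubiquitin. Its core is a barrel of stacked alpha and beta rings with the cutting sites inside the beta rings, and the regulatory particle is a base, with a ring of ATPases that unfolds the substrate and feeds it into the core, and a lid that takes the ubiquitin off. In yeast the activator Rpn4 binds the promoters of most subunit genes, and its own protein is degraded by the proteasome, which forms a feedback loop.

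Of the 35 proteasome genes, 26 read lower on all 4 evolved arrays than on both reference arrays, beside 27.4% of all genes. The changes were small: the most negative log2 change was −0.47, for PUP1 in 62B. In 62A, 13 of the 35 genes fell and 0 rose (limma adjusted p under 0.05 over 5449 genes), with a median log2 change of −0.16 against −0.04 over all genes. That is 37.1% of the proteasome genes, beside 14.9% of all genes that fell and 10.0% that rose in 62A. In 62B, 24 fell and 0 rose, with a median change of −0.24 against −0.01 over all genes. That is 68.6%, beside 21.3% of all genes that fell and 20.1% that rose. In 62C, 8 fell and 0 rose, with a median change of −0.10 against −0.04 over all genes. This share of 22.9% was close to the background of 23.3% of all genes lower in 62C, where 14.7% were higher. The 3 comparisons share both reference arrays, so their values stand side by side and are not independent. Without 62B replicate 1 the counts of lower genes were 7 in 62A, 18 in 62B and 4 in 62C, and without 62B replicate 2 they were 7, 16 and 4. The changes in 62A and 62C stayed the same in those fits, because the 62B arrays enter them only through the pooled spread. The genes whose call was lost without either 62B array were SCL1, PRE8, PUP2, PRE10, PRE7 and RPT6 in 62A, and PRE8, RPT6, RPN2 and RPN4 in 62C. In 62B, PRE1, RPN10, RPN11 and RPN4 lost theirs without either array, PRE7 and RPN1 without replicate 1, and PUP3, PRE4, RPT4 and RPT5 without replicate 2.

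A gene fell in all 3 strains in 7 cases, namely PRE8 (whose 62C call several alternatives ended), RPT1, RPT2, RPT3, RPT6, RPN1 and RPN4, which is 7 of 35 beside 8.35% of all genes. Another 7 fell in 2 strains and 10 fell in 1 strain. No strain passed the threshold for the remaining 11, which were PRE9, PRE6, PRE2, RPN13, RPN3, RPN5, RPN6, RPN8, RPN9, SEM1 and UMP1. The change was most negative in 62B for 32 of the 35 genes, among them all 14 core genes. The one gene of the 35 that read higher on every evolved array than on either reference array was RPN8, beside 18.2% of all genes.

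**Figure D1:**
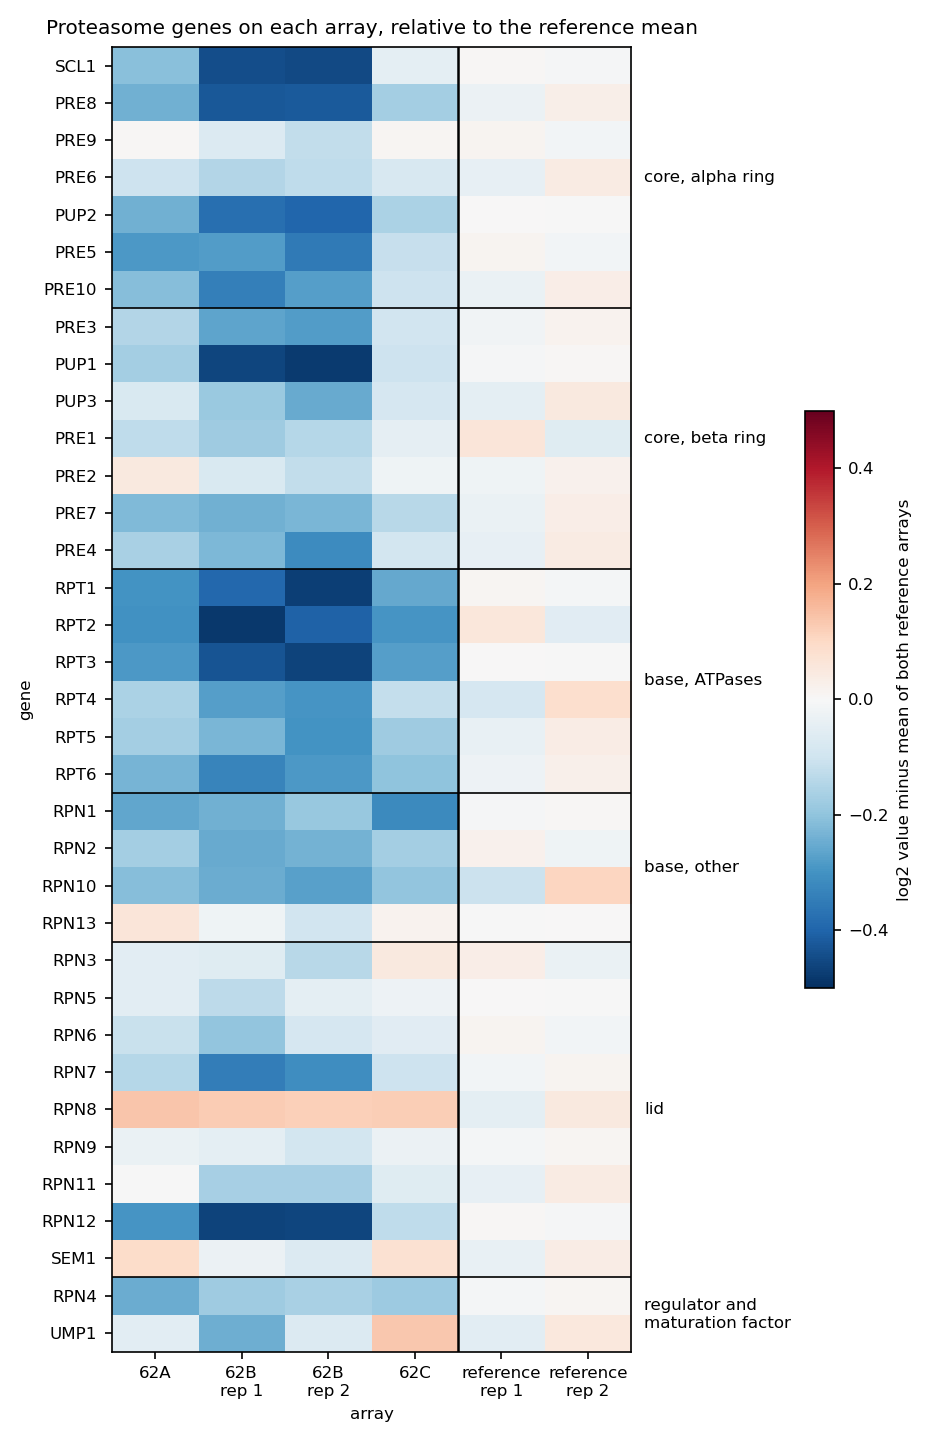
Each row is a proteasome gene and each column an array. Colour gives the log2 value minus the mean of both reference arrays, blue for lower and red for higher. The rows are grouped by position in the proteasome. Both 62B columns hold the deepest blue, 26 of 35 rows are lower on every evolved array than on either reference array, and RPN8 is the row that is higher on all 4 evolved arrays.

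Arrays of a strain were close. Over the proteasome genes, the SD of the log2 difference between paired arrays was 0.0595 for 62B and 0.0691 for the reference. The median log2 value over all genes lay between 7.30 and 7.34 on all arrays, with 96.8% to 97.3% of genes above background. RNA integrity was read as the 3' minus 5' log2 difference averaged over 8 control genes, where a higher value stands for less intact RNA. This difference was 1.89 on the 62A array, 2.01 and 2.05 on the 62B arrays and 1.73 on the 62C array. It was 1.90 and 1.84 on the reference arrays. The 62B arrays were thus highest in this measure and lowest in proteasome RNA, while 62C was lowest in this measure and nearest the reference in proteasome RNA. The 62A array lay between the reference arrays in this measure, with a median change of −0.16 over the proteasome genes. The part of RNA integrity in the changes was not tested. The background strain is a haploid of mating type a, and its 6 MATa-specific genes read between 7.50 and 11.28 over the arrays, while 4 MATalpha-specific genes read between 5.04 and 6.67. All 6 MATa-specific genes fell in 62B, with a median change of −0.69, beside 21.3% of all genes that fell. Of the 4 MATalpha-specific genes, 2 fell in 62B as well, with a median change of −0.14 over the 4. Neither was tested as a part of the 62B changes.

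In the 20S core, 6 of 14 genes fell in 62A (42.9%, beside 14.9% of all genes) and 11 in 62B (78.6%, beside 21.3%). In 62C 1 fell (7.14%), a smaller share than the 23.3% of all genes, and 0 rose in any strain. Without either 62B array the 62A count was 1, PRE5, and the 62C count 0. The alpha ring, which gates the entrance, had 5 of 7 genes lower in 62A, 5 in 62B and 1 in 62C (71.4%, 71.4% and 14.3%). The 62C share was below that of all genes. Median changes of the ring were −0.21, −0.32 and −0.10 in that order of strains. PRE8, an alpha ring subunit, read 9.07 on the 62A array, 8.89 and 8.89 on the 62B arrays and 9.14 on the 62C array, against 9.28 and 9.34 on the reference arrays. Every evolved array lay below both reference arrays, with 62B lowest. The change of PRE8 was −0.24 ± 0.06 in 62A (standard error, limma adjusted p = 0.0175), −0.42 ± 0.05 in 62B (limma adjusted p = 0.000154) and −0.17 ± 0.06 in 62C (limma adjusted p = 0.0461). Without either 62B array its call was lost in 62A (limma adjusted p = 0.0595) and in 62C (0.115). In 62C it was also lost with the median of all genes as the centre (limma adjusted p = 0.0548), with the replicate block (0.0745) and without reference replicate 2 (0.0719).

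PUP2, also of the alpha ring, read 9.39 in 62A, 9.25 and 9.23 in 62B and 9.47 in 62C, against 9.63 and 9.63 in the reference. The evolved and reference arrays did not overlap. It fell in 62A (−0.24 ± 0.06, limma adjusted p = 0.0146) and in 62B (−0.39 ± 0.05, limma adjusted p = 0.000211), and its change in 62C was −0.16 ± 0.06 (limma adjusted p = 0.0517). Without either 62B array the 62A call of PUP2 was lost (limma adjusted p = 0.0535). SCL1, a further alpha subunit, read 9.53 in 62A, 9.30 and 9.29 in 62B and 9.69 in 62C, against 9.75 and 9.74 in the reference. Here 62C stood next to the reference and 62B far below it. The changes of SCL1 were −0.21 ± 0.06, −0.45 ± 0.05 and −0.05 ± 0.06 in 62A, 62B and 62C, with limma adjusted p of 0.0257, 8.62e-05 and 0.548. Its 62A call was lost without either 62B array (limma adjusted p = 0.0813). PRE5 and PRE10 fell in 62A (−0.29 and −0.21) and in 62B (−0.32 and −0.31), but the 62A call of PRE10 was lost without either 62B array (limma adjusted p = 0.0871), without reference replicate 2 (0.0528), with the replicate block (0.0548) and with quantile normalization (0.0622).

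The other alpha genes passed in no strain. PRE9, the alpha subunit that yeast can live without, read 9.91 in 62A, 9.84 and 9.78 in 62B and 9.92 in 62C, against 9.92 and 9.90 in the reference. Its 62A and 62C values were level with the reference, and its change in 62B was −0.10 ± 0.05 (limma adjusted p = 0.142). PRE6 read 9.89 in 62A, 9.85 and 9.87 in 62B and 9.92 in 62C, against 9.96 and 10.04 in the reference. All evolved arrays were lower, but the largest of its changes, −0.14 ± 0.05 in 62B, had a limma adjusted p of 0.0554.

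The beta ring holds the cutting sites. Of its 7 genes, 1 fell in 62A (PRE7), 6 in 62B and 0 in 62C, or 14.3%, 85.7% and 0%. Beside 14.9%, 21.3% and 23.3% of all genes, only the 62B share was above the background. Median changes of the ring were −0.15, −0.23 and −0.09. PUP1, which encodes the subunit with trypsin-like activity, read 8.98 in 62A, 8.69 and 8.67 in 62B and 9.05 in 62C, against 9.15 and 9.16 in the reference. The 62B arrays stood apart from the other evolved arrays as well as from the reference. At 72.3% of the reference level, PUP1 had the most negative change of the 35 genes in 62B (−0.47 ± 0.05, limma adjusted p = 7.01e-05), beside −0.17 ± 0.06 in 62A (limma adjusted p = 0.0558) and −0.10 ± 0.06 in 62C (limma adjusted p = 0.182).

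The other cutting sites lie in the products of PRE2 and PRE3. PRE2, with the chymotrypsin-like site, read 10.42 in 62A, 10.30 and 10.25 in 62B and 10.35 in 62C, against 10.35 and 10.39 in the reference. Its groups overlapped and no change passed the threshold, the largest being −0.10 ± 0.05 in 62B (limma adjusted p = 0.129). PRE3, with the caspase-like site, fell in 62B (−0.27 ± 0.05, limma adjusted p = 0.00166), while its changes in 62A and 62C were −0.15 and −0.10. The structural beta subunits PUP3, PRE1, PRE7 and PRE4 fell in 62B, with changes between −0.27 and −0.16. Without 62B replicate 2 the calls of PUP3, PRE1 and PRE4 were lost (limma adjusted p = 0.119, 0.144 and 0.0616), and without 62B replicate 1 those of PRE1 and PRE7 (0.234 and 0.0555). Without reference replicate 1 the change of PRE1 was −0.10 and its call was lost (limma adjusted p = 0.127), as it was with quantile normalization (0.059). PRE7 was also lower in 62A (−0.22 ± 0.06, limma adjusted p = 0.0255, or 0.0768 without either 62B array).

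**Figure D2:**
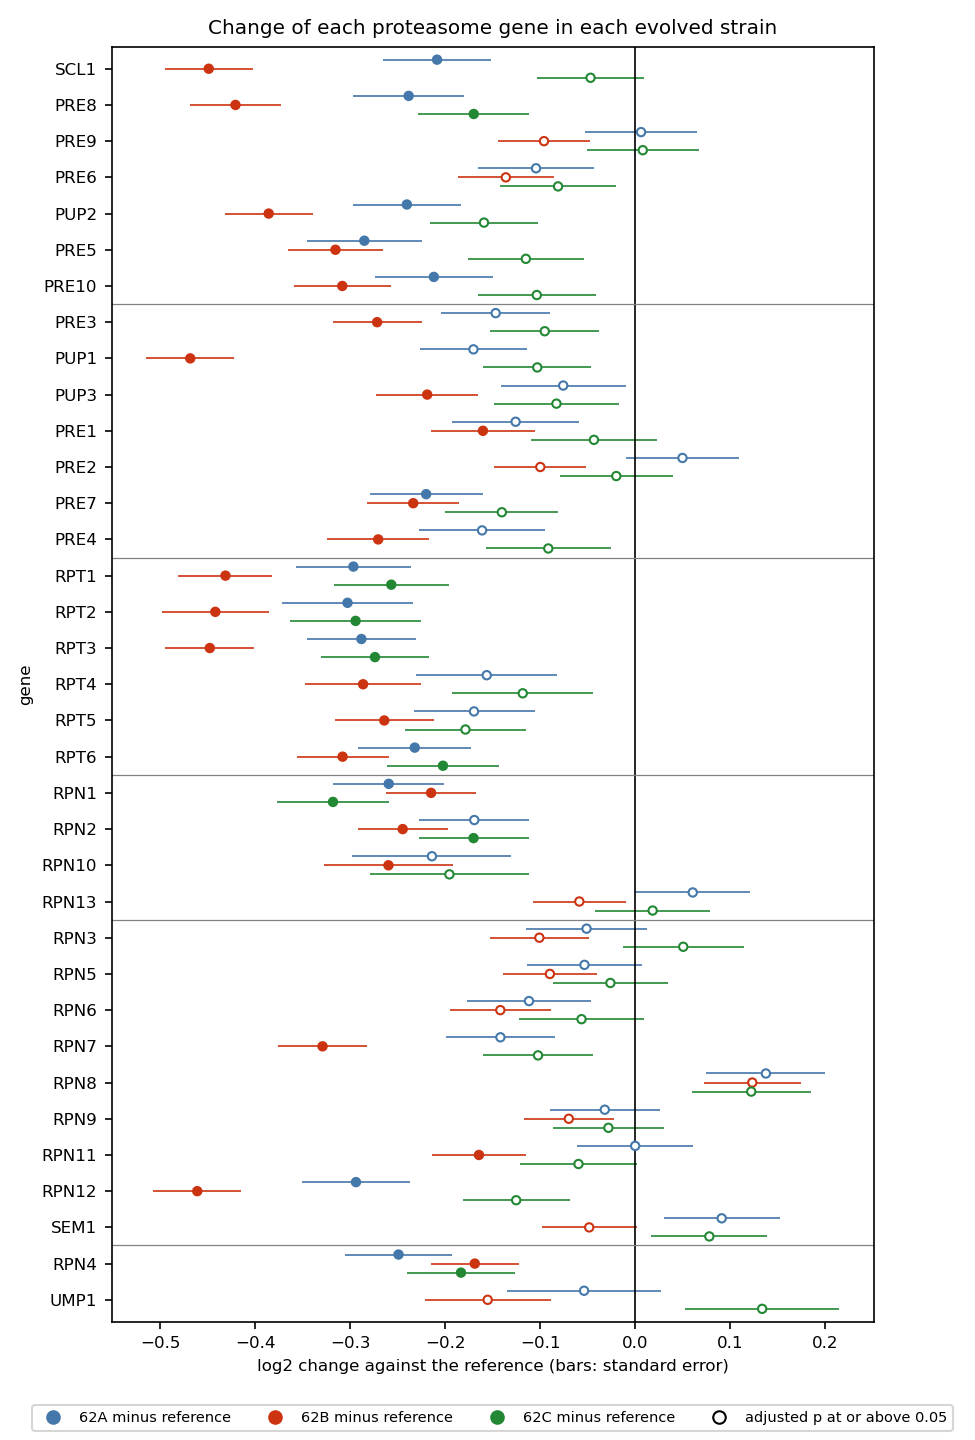
Log2 change of each proteasome gene against the reference mean, in 62A, 62B and 62C, with standard errors as bars. Filled points had a limma adjusted p under 0.05. All filled points lie left of 0: 13 of 62A, 24 of 62B and 8 of 62C, of which 4 are ATPases of the base.

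In the 19S particle, 6 of 19 genes fell in 62A, 12 in 62B and 6 in 62C, and 0 rose. These shares were 31.6%, 63.2% and 31.6%, beside 14.9%, 21.3% and 23.3% of all genes. Within the particle the base and the lid differed in their counts. The 10 genes of the base had 5 lower in 62A, 9 in 62B and 6 in 62C (50%, 90% and 60%), with median changes of −0.22, −0.28 and −0.20. The 9 genes of the lid had 1 lower in 62A, 3 in 62B and 0 in 62C (11.1%, 33.3% and 0%). In 62A and 62C the lid share was below that of all genes. Medians of the lid were −0.05, −0.10 and −0.03.

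All 6 ATPases of the base, RPT1 to RPT6, were lower on every evolved array than on either reference array, beside 27.4% of all genes. RPT1 read 9.95 in 62A, 9.85 and 9.78 in 62B and 9.99 in 62C, against 10.25 and 10.24 in the reference. RPT2, whose product opens the gate of the core, read 9.48 in 62A, 9.30 and 9.37 in 62B and 9.48 in 62C, against 9.83 and 9.72 in the reference. RPT3 read 8.80 in 62A, 8.65 and 8.62 in 62B and 8.81 in 62C, against 9.09 and 9.08 in the reference. For these 3 genes 62A and 62C were nearly level and 62B was lowest.

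The ATPase RPT1 had changes of −0.30 ± 0.06, −0.43 ± 0.05 and −0.26 ± 0.06 in 62A, 62B and 62C, with limma adjusted p of 0.00765, 0.000163 and 0.00907. Changes of RPT2 were −0.30 ± 0.07, −0.44 ± 0.06 and −0.29 ± 0.07 in the same order, with limma adjusted p of 0.0122, 0.000294 and 0.00857. Those of RPT3 were −0.29 ± 0.06, −0.45 ± 0.05 and −0.27 ± 0.06, with limma adjusted p of 0.00664, 9.35e-05 and 0.00498. RPT6 also fell in each strain (−0.23, −0.31 and −0.20), but without either 62B array its calls in 62A and 62C were lost (limma adjusted p = 0.0635 and 0.068). RPT4 and RPT5 fell in 62B (−0.29 and −0.26; without 62B replicate 2 the limma adjusted p was 0.0521 and 0.0584), and their changes of −0.18 to −0.12 in 62A and 62C did not pass.

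The other base genes encode scaffolds and ubiquitin receptors. RPN1, the large scaffold that docks shuttle factors and the deubiquitinase Ubp6, read 9.43 in 62A, 9.45 and 9.51 in 62B and 9.38 in 62C, against 9.69 and 9.70 in the reference. It was lower on all evolved arrays, and it and RPN8 were the 2 genes with their lowest change in 62C. The changes of RPN1 were −0.26 ± 0.06, −0.21 ± 0.05 and −0.32 ± 0.06 in 62A, 62B and 62C, with limma adjusted p of 0.012, 0.00611 and 0.00252. In 62B its call was lost without 62B replicate 1 (limma adjusted p = 0.0909). RPN2, the second scaffold, fell in 62B (−0.24) and 62C (−0.17), where the call was lost without either 62B array (limma adjusted p = 0.112), without reference replicate 1 (0.0547) and with median centring (0.0711). RPN10, a ubiquitin receptor whose reference arrays lay further apart (8.91 and 9.12), passed the test in 62B (−0.26 ± 0.07, limma adjusted p = 0.0137), with −0.21 in 62A and −0.20 in 62C. That call was lost without 62B replicate 1 or 2 (limma adjusted p = 0.0739 and 0.0977). RPN13, another ubiquitin receptor, read 8.72 in 62A, 8.64 and 8.56 in 62B and 8.68 in 62C, against 8.66 and 8.66 in the reference. Its values lay on both sides of the reference, and no change passed (0.06, −0.06 and 0.02).

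In the lid, RPN12 had the most negative changes. It read 8.55 in 62A, 8.39 and 8.39 in 62B and 8.72 in 62C, against 8.86 and 8.84 in the reference. All evolved arrays were lower, in the order 62B, 62A, 62C. RPN12 fell in 62A (−0.29 ± 0.06, limma adjusted p = 0.00577) and in 62B (−0.46 ± 0.05, limma adjusted p = 7.47e-05), and its change in 62C was −0.13 ± 0.06 (limma adjusted p = 0.111). RPN7 fell in 62B (−0.33 ± 0.05, limma adjusted p = 0.000589), as did RPN11, the lid's deubiquitinase (−0.16 ± 0.05, limma adjusted p = 0.0253). Without 62B replicate 1 or 2 the RPN11 call was lost (limma adjusted p = 0.149 and 0.154), as it was without reference replicate 2 (0.0701). RPN3, RPN5, RPN6 and RPN9 passed in no strain, with changes between −0.14 and 0.05.

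RPN8, the partner of Rpn11 in the lid, had the highest change averaged over the 3 strains. It read 10.38 in 62A, 10.37 and 10.36 in 62B and 10.36 in 62C, against 10.19 and 10.29 in the reference. The evolved arrays lay within a narrow band above both reference arrays, which themselves were further apart. Its changes of 0.14 ± 0.06 in 62A, 0.12 ± 0.05 in 62B and 0.12 ± 0.06 in 62C did not pass, with limma adjusted p of 0.141, 0.083 and 0.156. Without reference replicate 2 RPN8 passed in each strain, with limma adjusted p of 0.0358, 0.0185 and 0.0376. SEM1, the smallest lid subunit, read 10.42 in 62A, 10.30 and 10.26 in 62B and 10.41 in 62C, against 10.30 and 10.37 in the reference. It was a little above the reference in 62A and 62C and a little below in 62B, and no change passed.

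**Figure D3:**
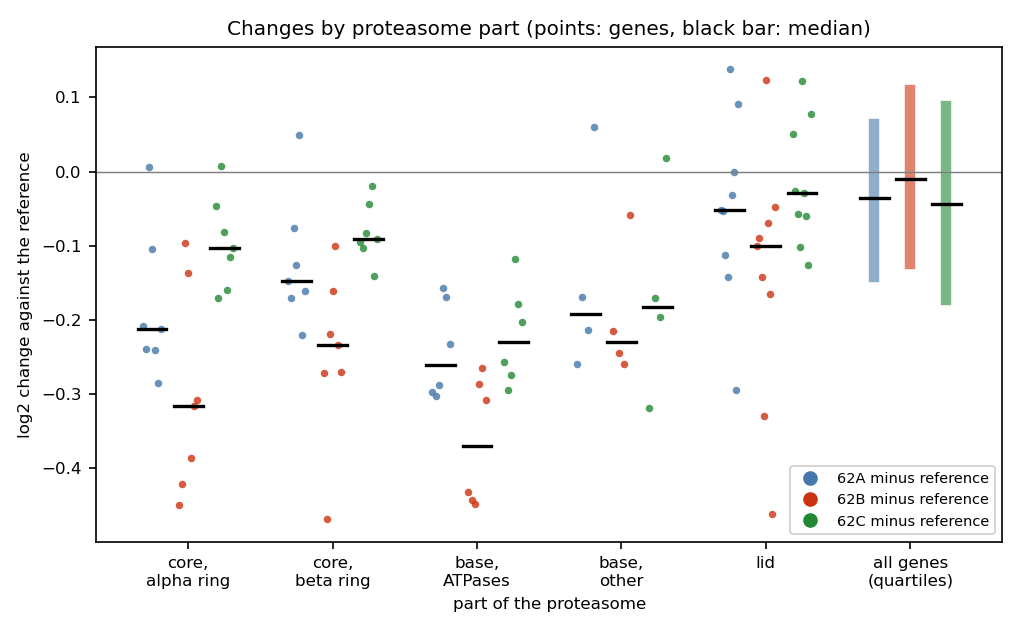
Log2 changes against the reference for the genes of each section of the proteasome, 1 point per gene, with the median as a black bar; at the right, the coloured bars span the middle quartiles of all 5449 genes. The ATPases of the base have the lowest medians (−0.26 in 62A, −0.37 in 62B, −0.23 in 62C) and the lid the medians nearest to those of all genes.

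Set against each other, the 20S core and the 19S particle had nearly the same medians: −0.17 and −0.16 in 62A, −0.27 and −0.24 in 62B, and −0.09 and −0.12 in 62C. The core had the larger share of lower genes in 62A and 62B (42.9% and 78.6% of 14, beside 31.6% and 63.2% of 19), and the 19S particle in 62C (31.6% beside 7.14%). Of all genes, 14.9%, 21.3% and 23.3% were lower in 62A, 62B and 62C, so the core was below the background in 62C. In 62A the order turned round without either 62B array. The core share was then just below that of all genes, and the 19S share stayed above it. On all 4 evolved arrays, 11 of 14 core genes and 14 of 19 genes of the 19S particle read lower than on both reference arrays. That is 78.6% and 73.7%, beside 27.4% of all genes. The spread inside the 19S particle was wider than the gap between it and the core: in 62B its changes ran from −0.46 for RPN12 to 0.12 for RPN8. These are descriptions of the groups, which were not tested against each other.

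Some of the genes lie close to each other on a chromosome. RPT4 and RPN8 have 1 gene between them on chromosome XV in the RefSeq gene order, and in 62B the change of RPT4 was −0.29 and that of RPN8 was 0.12. PRE4 and RPN12 have 1 gene between them on chromosome VI, with changes of −0.27 and −0.46 in 62B.

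RPN4 encodes the activator of the proteasome genes. It read 8.59 in 62A, 8.66 and 8.68 in 62B and 8.66 in 62C, against 8.83 and 8.85 in the reference. All evolved arrays were lower, and here 62A rather than 62B was lowest. The change of RPN4 was −0.25 ± 0.06 in 62A (limma adjusted p = 0.0125), −0.17 ± 0.05 in 62B (0.0164) and −0.18 ± 0.06 in 62C (0.0306). Without 62B replicate 1 or 2 the RPN4 calls in 62B (limma adjusted p = 0.137 and 0.111) and 62C (0.0871 in both cases) were lost. The order of the strains for RPN4 differed from that of the subunit genes, of which 14 of 14 core genes and 17 of 19 genes of the 19S particle were lowest in 62B, but the difference of RPN4 in 62B against 62A did not pass (0.08 ± 0.06, limma adjusted p = 0.392).

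UMP1, a chaperone that matures the beta subunits and is the first protein degraded by the new core, read 8.35 in 62A, 8.16 and 8.33 in 62B and 8.53 in 62C, against 8.35 and 8.45 in the reference. The 62B arrays differed by more for UMP1 than for any other of the 35 genes, and the groups overlapped. No change against the reference passed (−0.05 ± 0.08 in 62A, −0.16 ± 0.07 in 62B and 0.13 ± 0.08 in 62C), but it was lower in 62B than in 62C (−0.29 ± 0.08, limma adjusted p = 0.0233, or 0.167 without 62B replicate 1).

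Differences between evolved strains were tested in the same fit. In 62B against 62C, 11 of 35 genes were lower and 0 higher (31.4%, beside 14.1% of all genes lower and 19.5% higher), with a median difference of −0.13. They were the core genes SCL1, PRE8, PUP2, PRE5, PRE10, PRE3 and PUP1, the 19S genes RPT3, RPN7 and RPN12, and UMP1. The core supplied 7 of 14 genes (50%) and the 19S particle 3 of 19 (15.8%), the latter share being close to the 14.1% of all genes. The difference was −0.40 ± 0.06 for SCL1 (limma adjusted p = 0.00075), −0.37 ± 0.06 for PUP1 (limma adjusted p = 0.00128) and −0.34 ± 0.06 for RPN12 (limma adjusted p = 0.00206). With either 62B array left out, fewer of the 35 genes passed, SCL1, PUP1 and RPN12 among them. The share of the 35 genes was then close to that of all genes. The excess of calls in 62B against 62C thus rests on both 62B arrays. The differences of the genes that lost their call stayed below 0, while their standard errors rose, for PRE8 from 0.06 to 0.08.

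In 62B against 62A, 2 genes were lower (5.71%) and 0 higher, no more than the 6.77% of all genes that were lower, with 9.38% higher. They were PUP1 (−0.30 ± 0.06, limma adjusted p = 0.00695) and SCL1 (−0.24 ± 0.06, limma adjusted p = 0.0193). Quantile normalization gave 9 lower genes, beside 9.69% of all genes. Without a 62B array the count and the share of all genes both fell. Without a reference array both rose, and the share of the proteasome genes was then above that of all genes. In 62C against 62A, 0 genes were called by limma in either direction, beside 0.514% of all genes lower and 1.91% higher. At an unadjusted p under 0.05, 3 proteasome genes were higher in 62C than in 62A (8.57%) and 0 lower, close to the 8.22% of all genes that were higher, beside 6.17% lower.

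**Figure D4:**
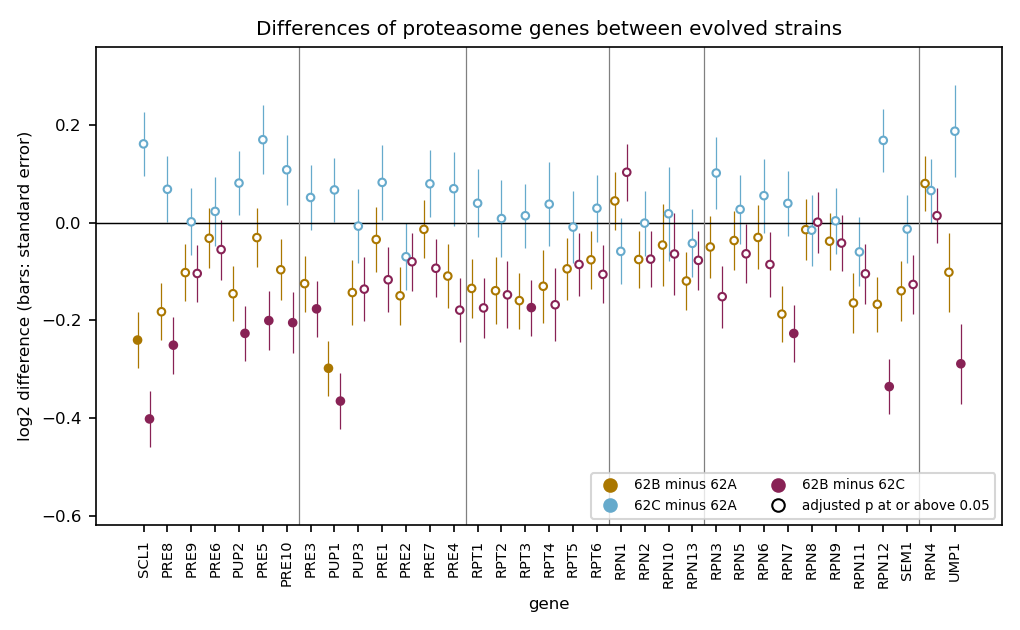
Log2 differences of each proteasome gene between evolved strains, with standard errors as bars and filled points for a limma adjusted p under 0.05. The filled points are 11 for 62B minus 62C and 2 for 62B minus 62A, all below 0, and 0 for 62C minus 62A; vertical lines separate the sections of the proteasome.

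Taking the 3 evolved strains as 3 samples against 2 reference arrays gave 0 lower and 0 higher genes among the 35 by limma, beside 2.79% of all genes lower and 1.96% higher. The median change was −0.19, and 16 genes (45.7%) had an unadjusted p under 0.05, all of them lower, beside 17.6% of all genes lower and 11.0% higher at that threshold. RPN1 came nearest to the threshold (−0.26 ± 0.05, limma adjusted p = 0.0554), followed by RPT1 and RPT2 (−0.33 and −0.35, both 0.0566). For SCL1 the standard error in this fit was 0.12, since its values in 62B and 62C lay far apart. With strain 62B left out, 8 genes (22.9%) passed, all lower, beside 14.8% of all genes lower and 9.34% higher in that fit.

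The ubiquitin and protease lists held 71 other genes. Of these, 19 fell (26.8%, beside 14.9% of all genes) and 7 rose (9.86%, beside 10.0%) in 62A. In 62B, 25 fell (35.2%, beside 21.3%) and 17 rose (23.9%, beside 20.1%). In 62C, 22 fell (31.0%, beside 23.3%) and 11 rose (15.5%, beside 14.7%). The shares that rose were thus near those of all genes. The 10 assembly chaperones had 1 lower and 1 higher gene in 62A, 2 and 3 in 62B, and 1 and 2 in 62C. Their shares lower (10%, 20% and 10%) did not exceed those of all genes. Their shares higher were 10%, 30% and 20%, beside 10.0%, 20.1% and 14.7% of all genes. TMA17, a chaperone of base assembly, read 7.92 in 62A, 8.20 and 8.17 in 62B and 8.21 in 62C, against 7.37 and 7.56 in the reference. It was higher on every evolved array, the opposite direction to the ATPases. TMA17 rose by 0.46 ± 0.08, 0.72 ± 0.07 and 0.75 ± 0.08 in 62A, 62B and 62C, and in the strains as 3 samples (0.64 ± 0.11, limma adjusted p = 0.0438). PBA1, a chaperone of the alpha ring, fell in each strain (−0.29, −0.29 and −0.28) and in the strains as 3 samples (limma adjusted p = 0.0419). FUB1, of the same list, rose in 62B and 62C (0.19 and 0.22, limma adjusted p = 0.0222 and 0.0291), with 0.20 in 62A. Both of these FUB1 calls were lost without either 62B array, and the 62B call also without reference replicate 1. Without reference replicate 1 or 2 the fit over 3 samples passed no gene of the series, so it cannot judge TMA17 or PBA1. Their changes were then 0.55 and 0.74 for TMA17 and −0.30 and −0.27 for PBA1. Both calls were lost without strain 62A (limma adjusted p = 0.112 and 0.152) and without strain 62C (0.0723 and 0.0705). They were also lost with strain as a random block (0.0961 and 0.0986), and that of PBA1 with an intensity trend (0.052). Of all genes, 0.0551%, 0.734% and 0.202% were lower without 62A, without 62C and with the random block. The shares higher were 0.0551%, 1.08% and 0.184%.

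Of 5 genes for proteins that bind the finished proteasome, 2 fell in 62A, 1 in 62B and 2 in 62C, and 2 rose in 62B. The shares lower were 40%, 20% and 40%, beside 14.9%, 21.3% and 23.3% of all genes. The share higher in 62B was 40%, beside 20.1%. BLM10, which encodes an activator that caps the core, read 7.64 in 62A, 7.94 and 8.02 in 62B and 7.57 in 62C, against 7.93 and 8.02 in the reference. It was low in 62A and 62C and level with the reference in 62B, where most core genes were lowest. Its changes were −0.33 ± 0.07 in 62A, 0.00 ± 0.05 in 62B and −0.41 ± 0.07 in 62C, with limma adjusted p of 0.00616, 0.972 and 0.00119. BLM10 was higher in 62B than in 62A (0.34 ± 0.07, limma adjusted p = 0.00771) and than in 62C (0.41 ± 0.07, limma adjusted p = 0.00143). SPG5, known for its part in proteasome assembly in stationary phase, rose in 62B (0.44 ± 0.05, limma adjusted p = 9.89e-05) and not by the test in the others (−0.12 and −0.10). It was higher in 62B than in 62A (0.56 ± 0.06, limma adjusted p = 0.00022) and than in 62C (0.55 ± 0.06, limma adjusted p = 0.000135). UBP6, the deubiquitinase of the base, fell in 62A and 62B (−0.18 and −0.19), but passed in neither without 62B replicate 1 or 2 (limma adjusted p between 0.0916 and 0.119), nor in 62A with median centring (0.0527). Without 62B replicate 2 the difference of BLM10 between 62B and 62A did not pass either (0.087).

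Of 7 genes that control RPN4, as transcription factors of its promoter or in the breakdown of its protein, 2 fell in 62A, 4 in 62B and 3 in 62C, and 0 rose. That is 28.6%, 57.1% and 42.9%, beside 14.9%, 21.3% and 23.3% of all genes. YAP1, the oxidative stress factor, fell in each strain (−0.29, −0.36 and −0.27) and in the strains as 3 samples (limma adjusted p = 0.043). That last call was lost without strain 62A or 62C (limma adjusted p = 0.152 and 0.0657) and with strain as a random block (0.0961). In these fits 0.0551%, 0.734% and 0.202% of all genes were lower. It was also lost with an intensity trend (0.0535) and quantile normalization (0.0505). Without reference replicate 1 or 2, where no gene of the series passed, the change of YAP1 was −0.31 and −0.30. PDR1, a drug resistance factor, also fell in each strain (−0.30, −0.24 and −0.43). UBR2, the ligase that marks Rpn4 for breakdown, fell in 62C (−0.33 ± 0.06, limma adjusted p = 0.00262), with −0.14 in 62A and −0.13 in 62B.

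Upstream of the proteasome, the 10 shuttle factor and Cdc48 genes had 5 lower and 0 higher in 62A, 7 and 3 in 62B, and 5 and 0 in 62C. The shares lower were 50%, 70% and 50%, beside 14.9%, 21.3% and 23.3% of all genes. The share higher in 62B was 30%, beside 20.1%. RAD23, which carries ubiquitinated proteins to the proteasome, read 8.83 in 62A, 8.74 and 8.66 in 62B and 8.92 in 62C, against 9.12 and 9.20 in the reference. It was lowest in 62B and, among the evolved arrays, highest in 62C, as were 12 of the 14 core genes. The changes of RAD23 were −0.33, −0.46 and −0.24, those of the shuttle factor DSK2 −0.32, −0.33 and −0.22, and those of the Cdc48 cofactor NPL4 −0.35, −0.29 and −0.25, all past the threshold. The 62C call of DSK2 was lost without either 62B array (limma adjusted p = 0.0725) and without reference replicate 2 (0.0538).

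UBI4, the stress-induced polyubiquitin gene, read 9.57 in 62A, 9.53 and 9.58 in 62B and 9.84 in 62C, against 9.35 and 9.05 in the reference. It was higher on every evolved array, although its reference arrays differed by more than the 62B arrays did. UBI4 rose in 62A (0.37 ± 0.10), 62B (0.36 ± 0.09) and 62C (0.64 ± 0.10), with limma adjusted p of 0.0285, 0.00857 and 0.00131. UBA1, the activating enzyme, fell in 62B (−0.19 ± 0.06, limma adjusted p = 0.0284), with −0.16 in 62A and −0.15 in 62C. The 62A call of UBI4 was lost without either 62B array (limma adjusted p = 0.0603) and its 62B call without 62B replicate 2 (0.0694). The UBA1 call was lost without 62B replicate 1 or 2 (0.138 and 0.156) and without reference replicate 2 (0.0986).

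The 9 conjugating enzymes had 2 lower and 0 higher in 62A, 4 and 2 in 62B, and 2 and 2 in 62C. Their shares lower were 22.2%, 44.4% and 22.2%, beside 14.9%, 21.3% and 23.3% of all genes. Their shares higher were 0%, 22.2% and 22.2%, beside 10.0%, 20.1% and 14.7%. UBC4, which acts on short-lived and abnormal proteins, fell in each strain (−0.45, −0.48 and −0.37) and in the strains as 3 samples (−0.44 ± 0.06, limma adjusted p = 0.0364). That last call was lost without strain 62A (0.133) and with strain as a random block (0.0785), where 0.0551% and 0.202% of all genes were lower. Without reference replicate 1 or 2, where no gene of the series passed, the change of UBC4 was −0.41 and −0.47. UBC8 rose in 62B (0.47) and 62C (0.34), while UBC11 fell in 62B (−0.64). The 8 ligases had 4 lower and 0 higher in 62A, 2 and 2 in 62B, and 4 and 0 in 62C. That is 50%, 25% and 50% lower, beside 14.9%, 21.3% and 23.3% of all genes, with 25% higher in 62B, beside 20.1%. SAN1, a ligase of nuclear quality control, fell in each strain (−0.31, −0.22 and −0.27), and SSM4, a ligase of the endoplasmic reticulum, fell in 62A and 62C (−0.27 and −0.42) with a change of 0.00 in 62B. UBR1, of the N-degron pathway, fell in 62A and 62B (−0.24 and −0.23). The 9 deubiquitinating enzymes had 3 lower and 0 higher in 62A, 4 and 1 in 62B, and 5 and 0 in 62C, with OTU1, UBP1 and UBP12 lower in each strain. Lower shares of this list were 33.3%, 44.4% and 55.6%, beside 14.9%, 21.3% and 23.3% of all genes. In 62B, 11.1% were higher, beside 20.1% of all genes. Without either 62B array calls were lost for UBR1 (limma adjusted p = 0.0764), OTU1 (0.06), UBP1 (0.0766) and UBP12 (0.114) in 62A and for OTU1 in 62C (0.0877). Without 62B replicate 1 or 2 they were lost in 62B for SAN1 (0.0766 and 0.0591) and UBP12 (0.0842 and 0.126), and for UBR1 without replicate 1 (0.126). The 62A call of UBP12 was also lost without reference replicate 2 (0.0694), with the replicate block (0.0579) and with an intensity trend (0.0609), and quantile normalization ended those of UBR1 in 62A (0.0587) and OTU1 in 62C (0.0571).

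The 8 vacuolar protease and inhibitor genes, the other main route of protein breakdown in yeast, went the other way: 5 rose in 62A, 3 in 62B and 6 in 62C, and 0 fell. The shares that rose were 62.5%, 37.5% and 75%, beside 10.0%, 20.1% and 14.7% of all genes. Their median changes were 0.25, 0.14 and 0.55. PBI2, which encodes an inhibitor of the vacuolar proteinase B, read 9.19 in 62A, 8.83 and 9.00 in 62B and 9.83 in 62C, against 8.45 and 8.17 in the reference. Every evolved array was higher and 62C was highest. PBI2 rose by 0.88 ± 0.11, 0.60 ± 0.09 and 1.52 ± 0.11 in 62A, 62B and 62C, with limma adjusted p of 0.000566, 0.00066 and 8.09e-06. The proteinase PEP4 (0.32, 0.28 and 0.58) and the aminopeptidase APE1 (0.41, 0.28 and 0.79) rose in each strain, again most in 62C. The 62B call of APE1 was lost without 62B replicate 2 (limma adjusted p = 0.0694).

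**Figure D5:**
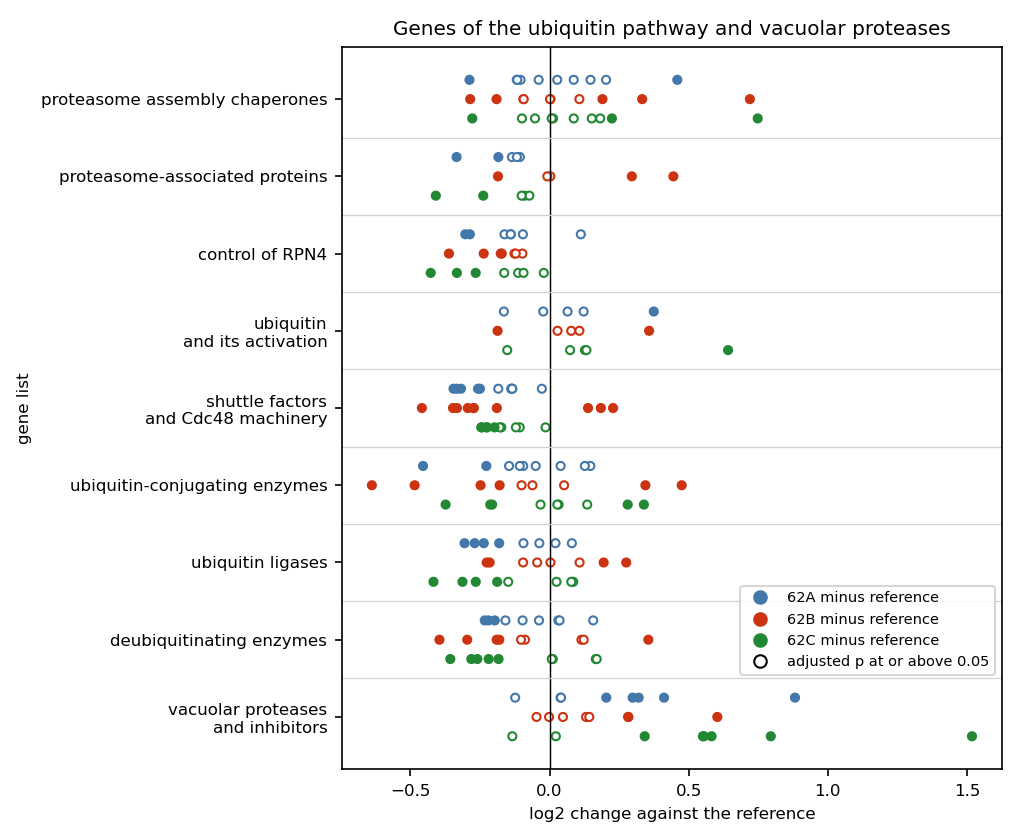
Log2 changes against the reference of 71 genes in 9 lists of the ubiquitin and protease pathways, 1 point per gene and strain, filled for a limma adjusted p under 0.05. Filled points of the shuttle factors lie mostly left of 0 and those of the vacuolar proteases and their inhibitors all lie right of 0, where 62C reaches furthest with PBI2 at 1.52.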

How the data were processed

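Biotin-labelled total RNA was read on 6 arrays, and the deposited values are log2 expression values per probe set that the authors made by RMA with affy, per the submitters' processing notes (no versions stated). No value was rescaled. Of 10928 probe sets, 7245 had a gene name in the platform annotation, and 5498 matched 1 current RefSeq gene of S. cerevisiae, 1746 another species and 1 several genes. Where several probe sets read 1 of the 5449 genes, the brightest on average stood for it. Background was the 95th percentile of the probe sets of the other species. The number of arrays limits the precision.

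Models were fitted with lmFit and eBayes of limma 3.58.1 (R 4.3.3). P-values were adjusted over all 5449 genes by Benjamini and Hochberg, with 0.05 as the threshold. The code was tested on simulated data. The strain fit had 1 term per strain over 6 arrays and 2 residual degrees of freedom. For 62A and 62C, with 1 array each, the spread was assumed to be that of the 62B and reference pairs. The fit of 3 strains (62B averaged) against 2 reference arrays had 3 residual degrees of freedom. Errors given as ± are standard errors.

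The members and gene lists were chosen with earlier results of these data known, and no list was tested as a set. Values per array are given for RPN4, UMP1 and, in the core and the 19S particle, the 3 genes with the most negative and the 3 with the most positive mean change. From each related list 3 genes are named, 2 for ubiquitin and its activation. They have the largest mean of the 3 strain changes, by size, among genes called in at least 1 strain. This rule passes over ECM29, which rose in 62B (0.30) and fell in 62C (−0.24), and POC4, which rose in 62B (0.33). SCL1, RPN1 and RPN12 were given in full after their values were seen. Alternatives changed the normalization, the centring, the variance model, the filter on dim genes, the treatment of several probe sets, the replicate block and the arrays entered. The replicate numbers were not used as pairs, because the differences between replicates of 62B and of the reference had a correlation of −0.06 over genes.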

Additional observations from a re-analysis of the deposited data

Results flagged for a closer look

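Some proteasome genes differed between evolved strains in direct tests of the difference. In 62B against 62C, 11 of 35 genes passed (limma adjusted p under 0.05), all lower in 62B (31.4%, beside 14.1% of all genes). In 62B against 62A 2 passed, both lower in 62B, and this share of 5.71% was no higher than the 6.77% of all genes that were lower. Both counts rest on both 62B arrays. With either left out, the share in 62B against 62C was close to that of all genes. In 62B against 62A it was then below that of all genes.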

How the results depend on the processing

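Counts of lower genes against the reference stayed within 1.5 times the reported ones in 62A, 62B and 62C under all alternatives, except in 62A and 62C without 62B replicate 1 or 2. The share of all genes called lower moved too. It rose in each strain without reference replicate 1, so the larger counts of proteasome genes there go with more calls over all genes. Leaving out single arrays gave 7 to 19 lower genes in 62A, 16 to 25 in 62B, 4 to 12 in 62C, 0 to 7 in 62B against 62A and 3 to 16 in 62B against 62C. Leaving out a 62B array also lowered the share of all genes called lower, to 8.17% in 62A, 10.9% and 11.5% in 62B and 17.3% in 62C. RPN8 was 1 higher gene without reference replicate 2 in each strain (0 to 1 over left-out arrays), and under quantile normalization in 62B. With the replicate block, UMP1 was 1 higher gene in 62C, 4 genes were lower in 62B against 62A and 1 gene was lower in the 3 strains as samples; the block moved no other count by over 1.5 times. In the 3 strains as samples 1 gene was also lower with median centring and without 62B replicate 1, and 8 without strain 62B. For 62B against 62A, quantile normalization gave 9 lower genes and median centring 7, beside 9.69% and 10.3% of all genes. The cause was not tested.

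The core median ranged over left-out arrays from −0.188 to −0.166 in 62A, −0.295 to −0.243 in 62B and −0.118 to −0.0738 in 62C, and was −0.0685 with median centring in 62C. That of the 19S particle ranged from −0.156 to −0.125 in 62A, −0.242 to −0.203 in 62B and −0.119 to −0.0883 in 62C. It was −0.121 with quantile normalization and −0.139 with median centring in 62A, and −0.252 and −0.0935 with median centring in 62B and 62C. No called value changed sign. Over all genes named and all comparisons, single-gene calls were gained 157 times and lost 150 times under the alternatives, 47 and 50 of the losses without 62B replicate 1 and 2. Promoter motifs were not searched, since no promoter sequences were used here.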
